A study of Mus musculus with 6 samples.

Results

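The insulin-like growth factor (IGF) axis was examined in mouse epidermal keratinocytes through 10 genes: the ligand genes Igf1 and Igf2, the receptor gene Igf1r, the binding protein genes Igfbp2, Igfbp3, Igfbp4, Igfbp5, Igfbp6 and Igfbp7, and H19, the imprinted RNA gene beside Igf2. The genes were taken by symbol, and all 10 were found among the 45513 identifiers of the count table. They were chosen from results of the same knockout and control libraries, whose levels were known at that point, so their differences between the groups are a description and carry no test. The knockout mice were Lama3flox/flox with K14-CreERT, a Cre recombinase fused to a mutated estrogen receptor domain and driven by the keratin 14 promoter of basal keratinocytes. The control mice were Lama3wt/flox with the same K14-CreERT, per the design text, although their genotype label reads wild type. All were on a C57BL/6 background, Cre was activated with chow holding 400 mg of tamoxifen citrate per kg, and the deletion removes exons 50 to 53 of Lama3, the alpha chain gene of laminin 332. Each group held 3 mice with 1 library each, named knockout 1 to 3 and control 1 to 3. Age and sex are not in the labels, and expression of Cre was limited to cells in which the keratin 14 promoter is active.

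IGF1 and IGF2 are secreted growth factors that signal through the tyrosine kinase receptor encoded by Igf1r. IGF binding proteins hold both ligands outside the cell, which prolongs their life and keeps them from the receptor until a protease frees them. In skin, IGF1 comes mainly from dermal fibroblasts and the dermal papilla, while keratinocytes of the epidermis and hair follicle bear the receptor and make several binding proteins.

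Knockout libraries held 24192158 to 28473479 counts and control libraries 20126395 to 25429816. Lama3 was measured at 97.3, 98.9 and 79.2 CPM in knockouts 1 to 3, against 141, 142 and 114 CPM in controls 1 to 3, so each library lay on the side of its label. CPM is the count scaled to library size with TMM factors. Keratinocyte markers were high in both groups: 6 basal markers summed to 14173.4 to 18890.2 CPM in knockouts and 13624.9 to 17623.8 CPM in controls. Counts of Xist and Ddx3y placed 2 females and 1 male among the knockouts and 1 female and 2 males among the controls. Of 15513 genes tested, 2693 (17.4%) were called higher and 2919 (18.8%) lower in knockouts, 36.2% in all. The quasi-likelihood test of edgeR was used, p-values were adjusted over all genes by the Benjamini-Hochberg method, and a gene was called when this adjusted p was below 0.05. That fit and threshold stand behind every call and adjusted p below.

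The upstream sequences of the 3 binding protein genes on which the results turn are shown first, because Igfbp3 and Igfbp5 were the members with the lowest knockout levels relative to control, and Igfbp2, the neighbour of Igfbp5, moved the other way. Each stretch is the 250 bases before the RefSeq start of the gene on build GRCm38.p6, written 5′ to 3′ on the gene's own strand. Capitals mark matches to any of 6 motifs on either strand.
Igfbp3 (chr11:7213924-7214173, minus strand): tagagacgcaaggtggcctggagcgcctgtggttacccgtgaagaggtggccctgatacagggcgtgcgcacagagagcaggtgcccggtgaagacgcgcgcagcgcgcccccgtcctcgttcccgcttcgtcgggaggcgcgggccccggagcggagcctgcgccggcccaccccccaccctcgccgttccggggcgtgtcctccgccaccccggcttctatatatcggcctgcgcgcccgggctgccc
Igfbp5 (chr1:72874866-72875115, minus strand): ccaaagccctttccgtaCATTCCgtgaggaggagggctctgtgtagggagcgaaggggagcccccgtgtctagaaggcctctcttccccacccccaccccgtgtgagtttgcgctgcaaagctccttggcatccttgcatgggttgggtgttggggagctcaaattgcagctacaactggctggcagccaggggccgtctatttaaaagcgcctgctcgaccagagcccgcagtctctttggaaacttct
Igfbp2, first start (chr1:72824230-72824479, plus strand): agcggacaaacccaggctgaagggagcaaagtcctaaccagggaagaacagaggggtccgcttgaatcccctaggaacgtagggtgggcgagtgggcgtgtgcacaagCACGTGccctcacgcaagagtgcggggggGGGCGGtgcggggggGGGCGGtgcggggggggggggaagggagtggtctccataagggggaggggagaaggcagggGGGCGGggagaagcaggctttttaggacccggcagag

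The motifs searched were the TATA box TATAAA, the GC box GGGCGG, the AP-1 motif TGANTCA, the TEAD motif GGAATG, the FOXO motif GTAAACA and the E-box CACGTG. The Igfbp3 stretch held none of them, and the Igfbp5 stretch held the TEAD motif 233 bases before the start. The Igfbp2 stretch shown held the GC box 3 times and the E-box 142 bases before the start. The stretch before a second start of Igfbp2 (chr1:72825137-72825386), not shown, held the AP-1 motif 39 bases before that start. Among 32851 promoters of the same length, 12.6% held the TEAD motif, 32.7% the GC box, 6.02% the E-box, 12.4% the TATA box, 6.75% the AP-1 motif and 3.17% the FOXO motif. The Igfbp3 stretch was 73.2% G and C with 32 CpG pairs, against 58.8% and 10 pairs for Igfbp5 and 67.2% and 14 pairs for the Igfbp2 stretch shown. The medians over all promoters were 52.4% and 6 pairs. These matches describe letters in a short window, and no match says only that the motif is not in it. Promoter entries were matched for 9 of the 10 members.

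The called IGF axis genes did not all move in one direction. Igfbp3, Igfbp5 and Igfbp4 were lower in the knockouts, while Igf1r, Igfbp2 and H19 were higher. Among the binding protein genes Igfbp2 alone was called higher, and its groups nearly touched. Counted by the threshold given above, 3 of the 10 genes were higher, 3 were lower, 3 were not called, and Igf1 was under the filter on low counts. Since the same contrast chose the genes, nothing is read from this count beside the 36.2% of all genes called. The call of Igfbp2 was lost in 8 of 12 alternative fits, and that of H19 in 1. Igf1r, Igfbp3, Igfbp4 and Igfbp5 kept their calls in all 12. These fits reuse the libraries that chose the genes, so a kept call describes the fit and adds no support.

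**Figure D1:**
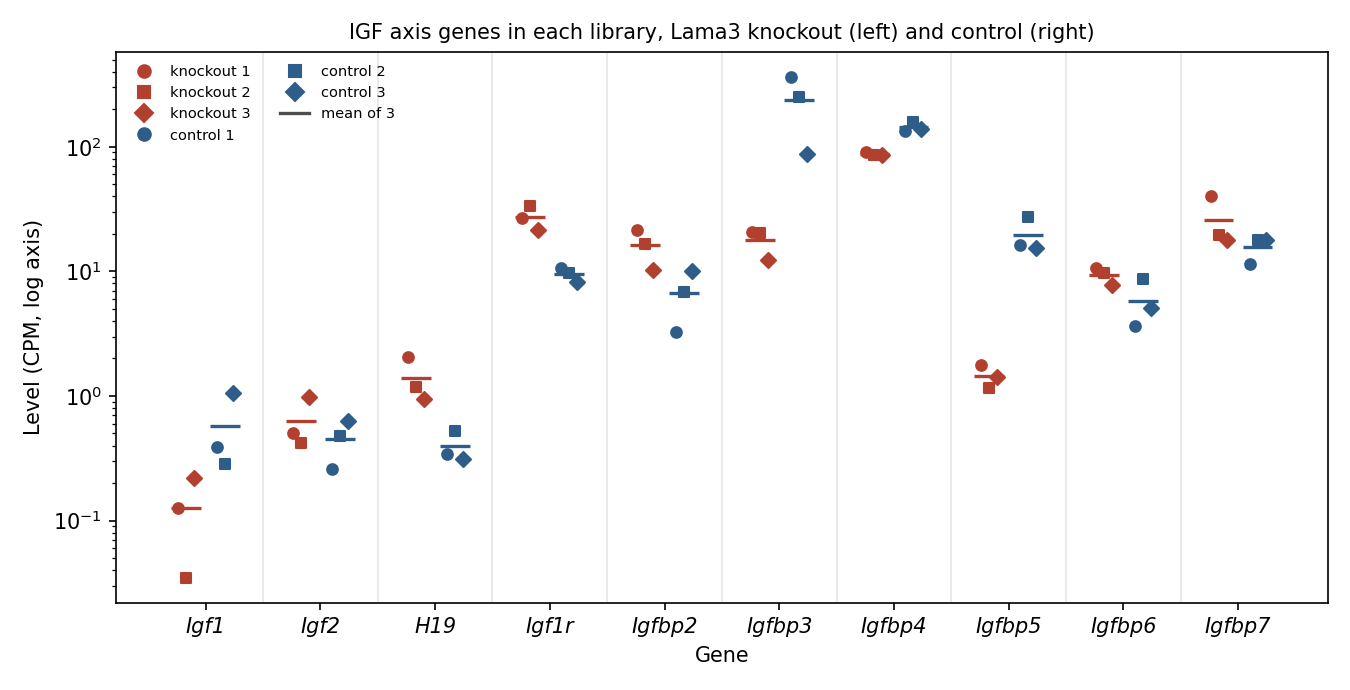
Level of each IGF axis gene in CPM on a log axis, with 1 point per library (3 knockout and 3 control) and a line at the mean of 3. The group means of Igfbp3 and Igfbp5 lie more than 10-fold apart (13.2-fold and 13.5-fold lower in knockouts), while the knockout points of Igf1r lie above all control points.

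Igfbp3 (ENSMUSG00000020427) encodes the main IGF carrier of serum and is also made by keratinocytes. It lies on the minus strand of chr11:7206086-7213923 (GRCm38). It was measured at 20.7, 20.5 and 12.3 CPM in knockouts 1, 2 and 3, against 366, 252 and 87.7 CPM in controls 1, 2 and 3. The groups did not overlap, and the knockout mean was 13.2-fold lower, with a log2 fold change of -3.72 (SE 0.52). The controls spread more than the knockouts: the highest control was 4.17-fold above the lowest, against 1.68-fold among knockouts. The libraries placed as female by Xist were knockouts 1 and 2 and control 1, so a comparison within either sex has 1 library on one side. With sex as a covariate the log2 fold change was -3.97. Leaving out single libraries or changing the fit kept the log2 fold change between -4.12 and -3.26. Igfbp1, the liver-enriched binding protein gene 3539 bases from Igfbp3 on the opposite strand, had 2, 1 and 0 counts in knockouts and no count in any control, so it was not detectable at this depth in a way that allows a comparison.

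Igfbp5 (ENSMUSG00000026185, chr1:72857932-72874884, minus strand) encodes a binding protein that also attaches to extracellular matrix. It stood at 1.78, 1.15 and 1.42 CPM in knockouts, against 16.2, 27.3 and 15.3 CPM in controls. Every knockout was below every control, and the log2 fold change was -3.76 (SE 0.30), or 13.5-fold lower in knockouts. Igfbp2 (ENSMUSG00000039323, chr1:72824503-72852474, plus strand), whose product carries both ligands and circulates at high levels in early life, ends 5457 bases from the end of Igfbp5. Its levels were 21.6, 16.6 and 10.3 CPM in knockouts and 3.27, 6.77 and 10.1 CPM in controls. The groups did not overlap but came close, with knockout 3 at 10.3 CPM and control 3 at 10.1 CPM, and the log2 fold change was 1.26 (SE 0.41). Leaving out 1 library moved the log2 fold change of Igfbp2 between 0.93 (without control 1) and 1.68 (without control 3), and that of Igfbp5 between -3.92 and -3.44.

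Igfbp4 (ENSMUSG00000017493, chr11:99041244-99054392, plus strand) encodes a binding protein that mostly restrains IGF action and is cut by pappalysin 1. It was the steadiest member: 90.6, 85.7 and 85.4 CPM in knockouts, against 133, 159 and 138 CPM in controls, with a log2 fold change of -0.72 (SE 0.11). The groups did not overlap, and the libraries of a group lay within 1.06-fold of each other in knockouts and 1.20-fold in controls. Igfbp6 (ENSMUSG00000023046, chr15:102144362-102149511, plus strand), whose product prefers IGF2, was measured at 10.7, 9.63 and 7.73 CPM in knockouts and 3.66, 8.62 and 5.07 CPM in controls. These groups overlapped, and the log2 fold change was 0.69 (SE 0.31). Igfbp7 (ENSMUSG00000036256, chr5:77349240-77408041, minus strand) encodes a related protein with weak affinity for IGFs. It was at 40.4, 19.5 and 18.0 CPM in knockouts and 11.4, 17.8 and 17.8 CPM in controls, so that knockout 1 stood apart from the other knockouts, which were close to the controls. Its log2 fold change of 0.73 (SE 0.33) came to 0.27 without knockout 1.

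To compare binding proteins with one another, levels were divided by exon length in kilobases, which gives FPKM. The summed level of the 6 genes was 82.1, 59.9 and 50.9 FPKM in knockouts, against 164, 147 and 86.5 FPKM in controls, with no overlap. Igfbp3 made up 8.05%, 10.9% and 7.72% of this sum in knockouts and 71.2%, 54.7% and 32.4% in controls. It was thus the most abundant of the 6 in controls 1 and 2. In control 3 Igfbp4 held 36.0%, but by longest transcript in place of all exons Igfbp3 held 35.6% and Igfbp4 35.3%, so these genes have no firm order in that library. In knockouts Igfbp7 (32.3% ± 7.36, SD, n = 3) and Igfbp4 (31.8% ± 6.51) were the largest shares, against 10.9% ± 5.68 for Igfbp7 and 26.3% ± 8.98 for Igfbp4 in controls (n = 3). Igfbp2 and Igfbp6 held 13.4% ± 2.14 and 13.3% ± 1.43 in knockouts, against 3.30% ± 2.73 and 4.18% ± 1.88 in controls. Igfbp5 was a minor share in both groups, 0.381% ± 0.0736 in knockouts and 2.56% ± 0.790 in controls. Shares are tied to one another, so a lower Igfbp3 raises the share of the others without a change in their level.

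**Figure D2:**
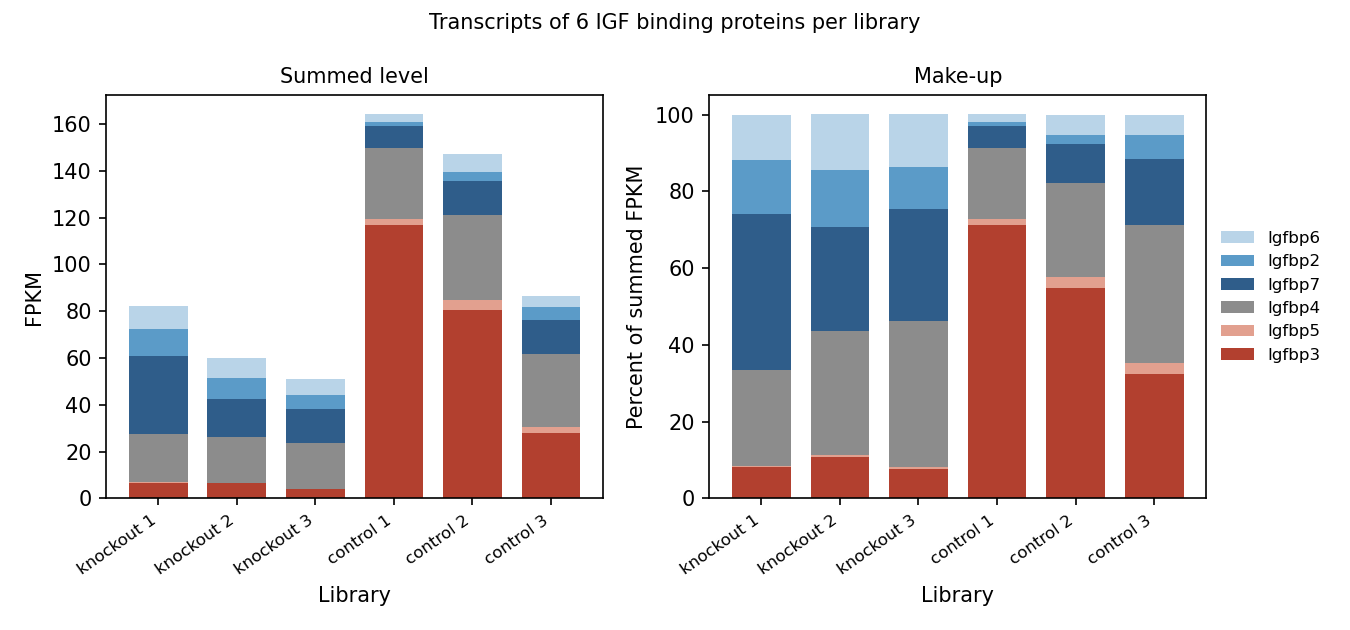
Summed FPKM of 6 IGF binding protein genes (left) and the percent of that sum held by each gene (right), with 1 stacked bar per library, knockouts before controls. Igfbp3 fills 7.72% to 10.9% of the bar in knockouts and 32.4% to 71.2% in controls.

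The order of the 10 genes by mean FPKM differed between the groups. In knockouts it ran Igfbp7 (21.5), Igfbp4 (19.8), Igfbp2 (8.74), Igfbp6 (8.40), Igfbp3 (5.69), Igf1r (1.62), H19 (0.569), Igfbp5 (0.241), Igf2 (0.111) and Igf1 (0.0128). Knockout ranges overlapped between Igfbp7 and Igfbp4 and between Igfbp2 and Igfbp6, so neither pair is ordered beyond its spread. The range of Igfbp2 (5.58 to 11.7 FPKM) also overlapped that of Igfbp3 (3.93 to 6.61 FPKM). In controls it ran Igfbp3 (75.2), Igfbp4 (32.5), Igfbp7 (13.0), Igfbp6 (5.20), Igfbp2 (3.64), Igfbp5 (3.26), Igf1r (0.571), H19 (0.160), Igf2 (0.0794) and Igf1 (0.0584). Control ranges overlapped between Igfbp3 and Igfbp4, between Igfbp6, Igfbp2 and Igfbp5 in turn, and between Igf2 and Igf1.

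Both ligand genes were near the limit of detection. Igf1 (ENSMUSG00000020053, chr10:87858265-87937042, plus strand) had 3, 1 and 6 counts in knockouts, against 9, 6 and 27 in controls, or at most 0.218 CPM in a knockout and 0.286 CPM or more in a control. Igf1 was under the filter. With no filter its log2 fold change was -2.14 (SE 0.68) and it was called lower, on 1 to 27 counts per library. As for the other members, this is a description. Igf2 (ENSMUSG00000048583, chr7:142650766-142666816, minus strand) had 12, 12 and 27 counts in knockouts and 6, 10 and 16 in controls, with overlapping groups (log2 fold change 0.48, SE 0.48). The antisense gene Igf2os overlaps it and had at most 4 counts in any library, and whether strand was used in counting is not given in the sources used here. In bulk RNA, fewer cells of a type and less RNA per cell cannot be told apart, and this holds for all genes here.

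H19 (ENSMUSG00000000031, chr7:142575529-142578143, minus strand) is a maternally expressed noncoding RNA gene 72622 bases from the paternally expressed Igf2, and both share control elements. H19 had 49, 34 and 26 counts in knockouts, against 8, 11 and 8 in controls, which is 2.07, 1.19 and 0.944 CPM in knockouts against 0.345, 0.524 and 0.314 CPM in controls. All knockouts lay above all controls, with a log2 fold change of 1.82 (SE 0.43). Without single libraries it lay between 1.44 and 2.07. H19 also hosts the microRNA miR-675, whose own row was at 0 in all 6 libraries, and so was that of Mir483 within Igf2. Neither was measured as a mature microRNA by this assay.

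Igf1r (ENSMUSG00000005533, chr7:67952827-68233668, plus strand) encodes the receptor of the family. Its levels were 26.9, 33.3 and 21.5 CPM in knockouts, against 10.7, 9.72 and 8.29 CPM in controls. The lowest knockout was above the highest control, and the log2 fold change was 1.51 (SE 0.19), or 2.84-fold higher in knockouts. Over the alternative fits its log2 fold change lay between 1.34 and 1.66. In mouse placenta, miR-675 from H19 is known to repress Igf1r, so its mature arms are shown with seeds (bases 2 to 8) in capitals, together with the seed matches found in the 7267-base 3′ UTR of the Igf1r transcript. The 3p arm had 2 matches and the 5p arm none, and each site below ends with the 7 matched bases in capitals.
mmu-miR-675-3p (chr7:142577078-142577099, minus strand): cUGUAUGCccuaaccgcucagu
mmu-miR-675-5p (chr7:142577112-142577133, minus strand): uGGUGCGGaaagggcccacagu
Igf1r site 1 (chr7:68226889-68226912, plus strand): gggctcctcatcaccccGCATACA
Igf1r site 2 (chr7:68227648-68227671, plus strand): tagaccgtgaaacatttGCATACA
Neither arm of miR-483, searched in the same way, had a match. The share of other 3′ UTRs with such matches was not counted, and a seed match by itself does not show that a site is used. A link between H19 and Igf1r was not tested, and mature miR-675 was not measured.

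The other receptors and extracellular partners were then examined. The choice of members did not use them, but this list too was drawn up with earlier results of these data known. Of 20 such genes 12 passed the filter, of which 3 were called higher, 4 lower and 5 neither, with a median log2 fold change of -0.02, the same as over all genes tested. The shares called (17.4% higher and 18.8% lower over all genes) were not compared by a test. Each of the 3 that rose is a receptor: the insulin receptor gene Insr, the IGF2 clearance receptor gene Igf2r and Lrp1, an endocytic receptor that also takes up IGFBP3. Insr was at 72.4, 82.3 and 57.1 CPM in knockouts and 47.8, 43.4 and 42.4 CPM in controls (log2 fold change 0.66, SE 0.15, edgeR's adjusted p = 0.0124). Igf2r was at 60.5, 48.2 and 43.5 CPM in knockouts and 21.6, 31.6 and 28.9 CPM in controls (0.89, SE 0.18, edgeR's adjusted p = 0.00903). For both genes every knockout exceeded every control. Lrp1 rose to 122 ± 21.6 CPM in knockouts, against 69.4 ± 6.44 CPM in controls (SD, n = 3 each; 0.82, SE 0.15, edgeR's adjusted p = 0.00650).

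Of the 4 partners that fell, Kazald1 and Igfals encode proteins that bind or carry IGFs, Pappa2 a protease and Tmem219 a receptor. Kazald1, a secreted protein with an IGF binding domain, was at 5.96, 7.75 and 5.12 CPM in knockouts, against 17.4, 15.2 and 15.6 CPM in controls (log2 fold change -1.35, SE 0.19, edgeR's adjusted p = 0.00270). Igfals, the acid-labile subunit that holds IGF and IGFBP3 in a serum complex, had 24, 10 and 15 counts in knockouts and 55, 76 and 77 in controls (-2.25, SE 0.41, edgeR's adjusted p = 0.00661). Pappa2, pappalysin 2, a protease that cuts IGFBP3 and IGFBP5, had 0, 1 and 4 counts in knockouts and 22, 57 and 79 in controls (-5.07, SE 0.79, edgeR's adjusted p = 0.00404), with a log2 fold change of -6.54 without knockout 3 and of -4.58 without knockout 1. Igfals and Pappa2 were thus low throughout, at no more than 3.62 CPM in any library. Tmem219, reported as a cell surface receptor for IGFBP3, fell less, to 15.8 ± 0.788 CPM in knockouts, against 23.3 ± 3.79 CPM in controls (n = 3 each; -0.56, SE 0.15, edgeR's adjusted p = 0.0216). Its call was lost without control 1, knockout 1 or knockout 2.

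Among the 5 partners not called was Pappa, the protease of IGFBP4, at 4.74 ± 2.01 CPM in knockouts and 4.52 ± 1.12 CPM in controls (n = 3 each). The serine protease gene Htra1 was at 106 ± 38.3 CPM in knockouts and 105 ± 30.6 CPM in controls (n = 3 each), and the pappalysin inhibitor gene Stc2 was at 4.89 ± 2.91 CPM in knockouts and 5.12 ± 2.42 CPM in controls (n = 3 each). Ccn1 and Ccn2, secreted proteins with an IGFBP-like module, had log2 fold changes of -0.62 (SE 0.52) and 0.57 (SE 0.35), and that of Ccn1 came to 0.07 without control 1. Ccn2 was at 850 ± 371 CPM in knockouts and 573 ± 184 CPM in controls, and Ccn1 was at 371 ± 140 CPM in knockouts and 568 ± 394 CPM in controls (n = 3 each). The remaining 8 genes, Igfbp1, Igfbpl1, Ins1, Ins2, Insrr, Stc1, Esm1 and Ccn3, stayed under the filter, and each was under 1 CPM in all libraries.

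**Figure D3:**
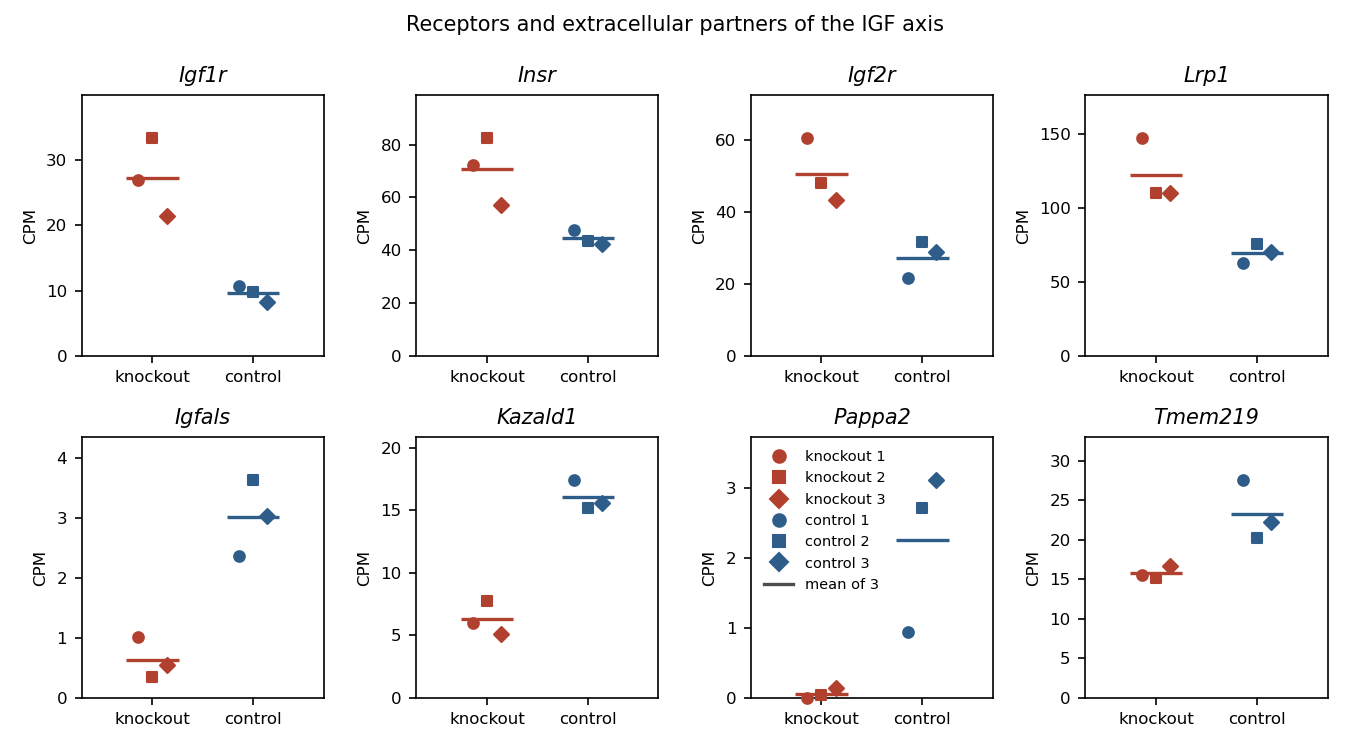
CPM per library of Igf1r and of the 7 receptors and extracellular partners that were called, with knockouts left of controls, 1 point per library and a line at the mean of 3. The 4 receptor genes in the upper row lie higher in knockouts, and the 4 genes in the lower row lie higher in controls, with Pappa2 at 0, 0.0349 and 0.145 CPM in knockouts.

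Genes of the pathway inside the cell were mostly higher where they were called. Of 32 listed genes 29 were tested, 16 rose, 2 fell and 11 were not called, beside 17.4% higher and 18.8% lower among all genes tested. The median log2 fold change of the list was 0.49, against -0.02 over all genes. Ptpn11, the phosphatase SHP2 that relays growth factor signals, rose to 159 ± 4.43 CPM in knockouts, against 91.0 ± 7.82 CPM in controls (n = 3 each; 0.80, SE 0.11, edgeR's adjusted p = 0.00262). Tsc1, a brake on mTOR, was at 47.9, 60.9 and 47.7 CPM in knockouts and 27.1, 32.0 and 29.2 CPM in controls (0.83, SE 0.13, edgeR's adjusted p = 0.00451). The genes that rose thus included a relay and a brake of the pathway. Ptpn1, a phosphatase that turns off insulin and IGF receptors, rose by 0.60 (SE 0.10), the catalytic subunit gene Pik3ca by 0.61 (SE 0.11) and the kinase gene Pdpk1 by 0.52 (SE 0.10), all on the log2 scale. Pik3r1, the main regulatory subunit of phosphoinositide 3-kinase, fell to 159, 196 and 172 CPM in knockouts, against 257, 326 and 291 CPM in controls (-0.73, SE 0.14, edgeR's adjusted p = 0.00847).

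The receptor substrates were singled out after their values were seen. Irs2 rose to 37.6, 72.4 and 43.9 CPM in knockouts, against 25.0, 27.1 and 15.9 CPM in controls (log2 fold change 1.18, SE 0.29, edgeR's adjusted p = 0.0171), while Irs1 overlapped between the groups (-0.01, SE 0.26). Grb14, an inhibitor of the insulin receptor and the other gene that fell, changed by -0.83 (SE 0.27, edgeR's adjusted p = 0.0444), and its call was lost in 9 of 12 alternative fits, those without any 1 library among them. The call of Irs2 was lost without control 3. When libraries were scaled by upper quartiles, the list had 10 higher and 4 lower, and the median of all genes moved to -0.17. Of all calls 30.6% were then higher, against 48.0% here. The list had 10 higher without knockout 1 and 9 without control 3.

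FOXO transcription factors are switched off by insulin and IGF signals, and their targets fall when the signal is on. Of 19 listed factors and targets 18 were tested, 4 rose, 2 fell and 12 were not called, with a median log2 fold change of 0.11. The share called was near the 36.2% called among all genes tested, so the count is no result about the list. Klf15, a metabolic transcription factor, rose to 65.5, 77.9 and 64.1 CPM in knockouts, against 21.7, 17.6 and 13.7 CPM in controls (1.97, SE 0.18, edgeR's adjusted p = 0.000905). The factors themselves moved unevenly: Foxo4 (0.84, SE 0.15) and Foxo3 (0.64, SE 0.12) rose, and Foxo6 (-0.85, SE 0.24) fell. Sod2, mitochondrial superoxide dismutase, rose by 0.42 (SE 0.12), and Ccng2, cyclin G2, fell by 0.62 (SE 0.21). The calls of Ccng2, Foxo6 and Sod2 were lost in 7, 6 and 4 of 12 alternative fits, among them those without control 1 and control 3, and no listed gene was called lower without knockout 3, control 2 or control 3.

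The growth hormone axis, which sets IGF1 production in liver, showed no call. None of 8 tested genes passed the threshold with edgeR or with DESeq2, and 1 had an unadjusted p under 0.05. Among all genes tested edgeR called 36.2%. The list is short, and its share was not compared with that of all genes by a test. Ghr, the growth hormone receptor gene, was at 72.2 ± 3.91 CPM in knockouts and 67.1 ± 6.70 CPM in controls (n = 3 each; log2 fold change 0.11, SE 0.11).

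Because H19 and Igf2 belong to the imprinted genes, 32 such genes were examined beside them. Of 21 tested 7 rose, 3 fell and 11 were not called, beside 17.4% higher and 18.8% lower among all genes tested, with a median log2 fold change of -0.09. Peg3, a paternally expressed zinc finger gene, was at 33.4, 33.1 and 39.4 CPM in knockouts, against 9.69, 10.7 and 10.6 CPM in controls (1.77, SE 0.13, edgeR's adjusted p = 0.000455). Peg10, a gene derived from a retrotransposon, was at 2.62, 2.93 and 1.78 CPM in knockouts and 0.129, 0.381 and 0.236 CPM in controls (3.29, SE 0.43, edgeR's adjusted p = 0.00232). Cdkn1c, a cell cycle inhibitor gene in the chromosome 7 cluster next to that of H19, rose by 1.64 (SE 0.28), and Zrsr1, a splicing factor gene, by 0.70 (SE 0.17). The knockout libraries of these 4 genes all lay above the controls. Dcn, decorin, imprinted in mouse placenta and best known as a matrix protein of fibroblasts, fell to 2.42 ± 0.510 CPM in knockouts, against 7.34 ± 1.25 CPM in controls (n = 3 each; -1.60, SE 0.24, edgeR's adjusted p = 0.00376). The other genes that fell, named after their values were seen, were the noncoding RNA genes Rian (-1.89, SE 0.50) and Kcnq1ot1 (-0.87, SE 0.28), an antisense gene whose reads cannot be told apart from those of its host gene where strand was not used. The call of Rian was lost without knockout 1, knockout 2 or control 2, that of Kcnq1ot1 in 8 of 12 alternative fits, kept without control 1 alone among the left-out libraries, and that of Zrsr1 without knockout 2 or control 3. Without control 3 the number that rose was 4, and the number that fell was 1 without knockout 1 or control 2.

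**Figure D4:**
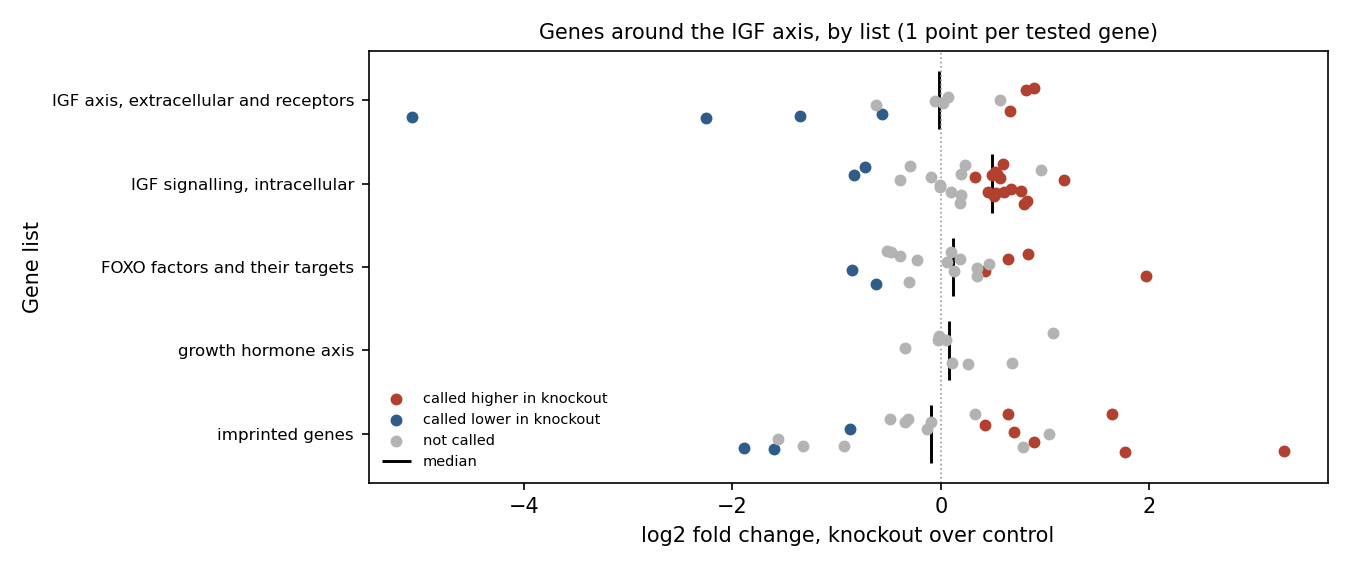
Log2 fold change, knockout over control, of each tested gene in 5 lists around the IGF axis, with called genes coloured and a black bar at each list's median. The intracellular list has its median at 0.49, and the medians of the other 4 lists lie between -0.09 and 0.11.

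Markers of other cells moved in the same libraries as Igfbp3 and Igfbp5. All 9 tested hair sheath and shaft markers were lower, summing to 16.0, 19.6 and 22.4 CPM in knockouts and 94.1, 326 and 173 CPM in controls. Dermal papilla markers (2 of 3 tested lower, 4 listed) summed to 1.26 to 3.81 CPM in knockouts and 7.82 to 13.0 CPM in controls, and melanocyte markers (5 of 5 lower) to 11.1 to 21.4 CPM in knockouts and 50.3 to 180 CPM in controls. T cell markers (7 of 7 lower) summed to 40.6 to 53.5 CPM in knockouts and 104 to 234 CPM in controls. Sebaceous markers (2 of 5 lower) summed to 403 to 811 CPM in knockouts and 838 to 1154.7 CPM in controls, mostly from Scd1, which was not called. Outer root sheath and bulge markers (1 higher and 1 lower of 7) summed to 2267.0 to 3430.0 CPM in knockouts and 3618.8 to 6189.7 CPM in controls. Most of that sum was Krt15, at 1731.8 to 2747.8 CPM in knockouts and 3192.9 to 5582.9 CPM in controls. The median log2 fold change of the outer root sheath and bulge list was 0.00. Markers of stressed keratinocytes (7 of 7 higher) summed to 4842.3 to 16804.6 CPM in knockouts and 2057.1 to 2476.1 CPM in controls, and suprabasal markers (4 of 5 higher) to 24736.9 to 39970.5 CPM in knockouts and 9736.2 to 13574.6 CPM in controls. The part of these cell types in the IGF axis values was not tested.

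Fibroblasts and vessels of the dermis are known sources of IGF1 and binding proteins. Dermal fibroblast markers (2 of 9 lower, Lum and Dpt) summed to 140 to 166 CPM in knockouts and 116 to 230 CPM in controls. The largest part of this sum was Sparc, which was not called, at 94.7 to 130 CPM in knockouts and 89.8 to 171 CPM in controls. The median log2 fold change of the fibroblast list was -0.62. Vascular endothelium markers (1 of 4 lower) summed to 6.26 to 8.75 CPM in knockouts and 9.13 to 18.3 CPM in controls. Pericyte and smooth muscle markers had 1 higher and 1 lower of 4, Schwann cell 1 lower of 5, Langerhans cell 1 lower of 5, macrophage 3 higher of 7 and basal keratinocyte 1 higher of 6. No skeletal muscle marker of 3 or adipocyte marker of 1 was called by edgeR or DESeq2, with 0 at an unadjusted p under 0.05, and none of 6 neutrophil markers passed the filter, 2 of them at 0 in all libraries.

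The genes whose profile over the 6 libraries was most like that of each member were found by the root mean square difference of centred log2 CPM. For Igfbp3 they were Paqr7 (0.541), Adamts14 (0.563) and Nkd2 (0.584), and for Igfbp5 Nkd2 (0.293), Paqr7 (0.305) and Awat2 (0.329). Nkd2 and Paqr7 were thus among the 3 nearest of both, though at larger differences for Igfbp3. Their log2 fold changes were -3.74 and -3.43, and genes with a like group difference come out close by this measure. For Igf1r they were Il17rd (0.0666), Agpat4 (0.0751) and Asprv1 (0.106), for Igfbp4 Chd3 (0.0542), Sdhb (0.0606) and Fam114a1 (0.0667), and for H19 Tenm2 (0.189), Enpp1 (0.209) and Rdh1 (0.209). The nearest genes were Col12a1, Ckb and Sulf2 for Igfbp2, Mgat4a, Slit3 and Gpr157 for Igfbp6, Scd2, Slc30a1 and Fat1 for Igfbp7, and Icosl, Psrc1 and Hist1h2bc for Igf2. Likeness was measured over 6 libraries in 2 groups, and it is a description with no test.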

How the data were processed

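RNA from isolated keratinocytes was sequenced as paired reads of 100 bases, per the labels. The authors deposited whole-number counts per Ensembl gene, with 1 column per library. TopHat 1.3.3, featureCounts 1.4.6, Cuffdiff 1.3.0 and build GRCm38 are named in the submitters' processing notes, while strand use, multi-mapping and the annotation release are not given in the sources used here. Symbols, positions and exon lengths came from GENCODE M21, and 928 identifiers without a symbol (0.103% to 0.156% of counts) stayed in the fit. edgeR 4.0.16 under R 4.3.3 was run across all genes with TMM factors, filterByExpr by group, robust quasi-likelihood and Benjamini-Hochberg adjustment, testing 15513 of 25742 genes with any count. CPM used TMM factors, and FPKM divided CPM by the union of exons. The code was tested on simulated data. Libraries were grouped by title, and p-values measure the spread between 3 mice per group.

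The members, lists and rules were chosen with earlier results of these data known. Named genes were the members, all tested extracellular partners, and from each other list up to 6 called genes with the smallest p. The 3 nearest profiles per member required a mean of at least 5 CPM. The list names Cyr61, Ctgf and Nov are given by their table symbols Ccn1, Ccn2 and Ccn3, and the hair marker Krt85 was not matched. The main fit did not treat libraries with equal replicate numbers as paired. Correlations of deviations within groups of 3 cannot settle whether they were. Alternatives included DESeq2 1.42.0, other scaling, no filter, covariates and leaving out each library.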

Additional observations from a re-analysis of the deposited data

How the results depend on the processing

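Over 12 alternatives the counts of extracellular partners stayed at 3 higher and 3 or 4 lower. Leaving out each library gave 1586 to 2754 higher and 1714 to 2771 lower genes in all, 9 to 15 higher and 1 or 2 lower intracellular genes, 0 to 3 lower FOXO genes, and 4 to 7 higher and 1 to 4 lower imprinted genes. Upper-quartile factors gave 1756 higher genes in all, 10 higher and 4 lower intracellular genes, 6 lower FOXO genes and 5 lower imprinted genes. With no filter on low counts 1 intracellular and 0 FOXO genes were lower, and with sex as a covariate 1 intracellular gene. Equal replicate numbers showed correlations of their deviations of -0.114, -0.098 and 0.419, knockouts 1 and 2 correlated best with another number, and the replicate block gave 2422 higher and 2701 lower genes, with 1 lower intracellular and 1 lower FOXO gene. By longest transcript, Igfbp2 and Igfbp6 made up 16.7% and 11.7% of binding protein transcripts in knockouts. Uncalled genes that changed sign were Htra1 (-0.13 with upper-quartile factors, -0.01 with the replicate block, -0.23 with the sex covariate, -0.25 to 0.27 without single libraries), Pappa (-0.08 with upper-quartile factors, -0.32 to 0.30), Stc2 (0.32 with the sex covariate, -0.46 to 0.35), Ccn1 (-0.99 to 0.07, above 0 without control 1), Irs1 (0.00 with DESeq2 size factors, 0.03 with no filter, -0.26 to 0.19 without single libraries) and Ghr (-0.04 with upper-quartile factors). The cause of these moves was not tested. Depth limits Igf1, Igf2, H19, Igfals, Pappa2, Rian and Peg10, which rest on few counts. Rian had 2, 3 and 6 counts in knockouts and 10, 15 and 11 in controls, and Peg10 had 3, 8 and 6 in controls.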
